A study of Mus musculus with 12 samples.

Results

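A set of 10 genes known as partners or targets of chromosomal fusions in leukaemia was followed across 12 arrays of mouse AML1-ETO bone marrow cells with and without Tet2. The 10 genes were taken by symbol from the annotation of the value table, with 1 row each, and all 10 were among the 16860 genes tested after a filter on low signal. They are the AF4 family members Aff3, Aff1 and Aff4, the elongation factor Mllt3, the histone methyltransferase Kmt2a, the acute promyelocytic leukaemia genes Zbtb16, Pml and Rara, the ETS repressor Etv6 and the nucleoporin Nup98. Aff3 and Zbtb16 were picked because their signal differed between Tet2-/- and Tet2fl/fl cells on these same arrays, so their differences between genotypes are given as a description and carry no test. The other 8 joined them as genes of the same fusions or families.

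In human leukaemia, translocations join KMT2A (also called MLL) to many partners, among them AFF1, AFF3, AFF4 and MLLT3 (AF9). The AF4 proteins are scaffolds that bring elongation factors, including the acyl-lysine reader MLLT3 and the kinase P-TEFb, to paused RNA polymerase II, and the resulting fusion proteins keep HOX and MEIS1 genes on. In acute promyelocytic leukaemia the retinoic acid receptor RARA is fused to PML, the organiser of PML nuclear bodies, or more rarely to the BTB zinc finger repressor ZBTB16 (PLZF). ETV6 and NUP98 are fused to kinases, homeodomain proteins and chromatin regulators. None of these fusions was introduced in the cells studied here, which carry AML1-ETO, the RUNX1-RUNX1T1 fusion, so the arrays report on the normal mouse genes.

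Each of the 4 groups held 3 arrays. Tet2-/- cells at passage 10 and at passage 2 came from Kit-enriched bone marrow of Tet2fl/fl;CreER mice that was transduced with an AML1-ETO retrovirus carrying GFP, taken through 3 rounds of replating, and then given 200 nM 4-OHT for 2 passages (4 days) to activate Cre. Tet2fl/fl cells at passage 10 and at passage 2 came from the same kind of culture and received ethanol in place of 4-OHT. All cultures grew in SCF, IL-3 and IL-6, and RNA was taken from sorted GFP+, CD11b-, Gr1-, CD16/32+ cells. The labels give no age or strain for the mice. Since 4-OHT was given to the Tet2-/- cells alone, the drug, Cre activity and Tet2 deletion cannot be told apart. The single array row of Tet2 gives 1 value for the whole gene and does not check the deletion: its log2 signal averaged 9.83 in Tet2-/- cells and 9.88 in Tet2fl/fl cells at passage 10, and 9.94 in Tet2-/- cells and 9.97 in Tet2fl/fl cells at passage 2. No label states that the 3 replicates of a group are separate cultures, and the spread behind each p-value may therefore be technical.

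All values are log2 RMA signals of Affymetrix Mouse Gene ST 2.0 arrays, and a difference of 1 is a doubling. Levels of different genes are not compared, because each row has its own probes. The median signal of an array was 5.57 at the lowest and 5.68 at the highest, and replicates of 1 group had Pearson correlations of 0.984 to 0.991 with each other. All 10 immature myeloid markers (such as Mpo, Elane and Cebpa) were measured, and their mean lay between 10.5 and 11.5 in the 12 arrays. Single markers among them differed by genotype or passage, as given below. In bulk RNA of this kind, fewer cells of a type and less RNA per cell cannot be told apart.

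**Figure D1:**
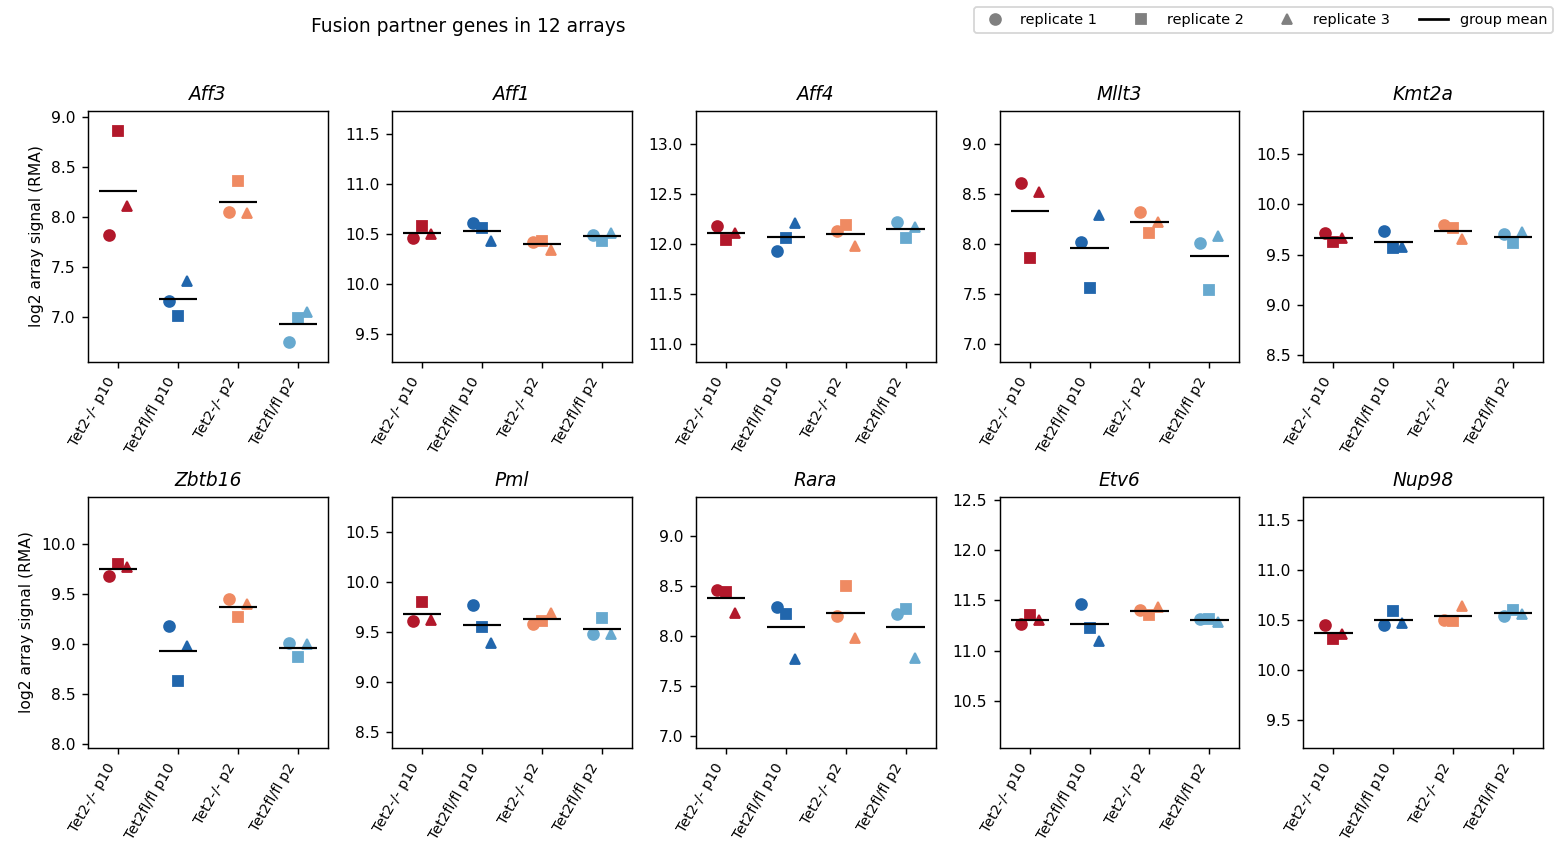
Log2 RMA signal of the 10 genes on each array, in Tet2-/- cells and Tet2fl/fl cells at passage 10 and at passage 2. Points are arrays, with a shape for each replicate number, and bars are group means of 3 arrays; Aff3 and Zbtb16 are the panels in which the genotypes stand apart at both passages.

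Among the AF4 family, Aff3 was higher in Tet2-/- cells at both passages. At passage 10 its log2 signal was 7.82, 8.86 and 8.11 in Tet2-/- cells, against 7.16, 7.01 and 7.36 in Tet2fl/fl cells. At passage 2 it was 8.05, 8.36 and 8.04 in Tet2-/- cells, against 6.75, 6.99 and 7.05 in Tet2fl/fl cells. The genotypes did not overlap at either passage, and within each genotype the passages did: group means ran from 8.26 ± 0.53 (Tet2-/- passage 10) and 8.15 ± 0.18 (Tet2-/- passage 2) down to 7.18 ± 0.18 (Tet2fl/fl passage 10) and 6.93 ± 0.16 (Tet2fl/fl passage 2; SD, n = 3 each). The difference was 1.08 ± 0.22 (SE) at passage 10, or 2.12-fold, and 1.22 ± 0.22 at passage 2, or 2.33-fold. Replicate 2 at passage 10 gave the widest gap, and with 1 array left out the passage 10 difference ranged from 0.79, without that Tet2-/- array, to 1.30. It was 0.70 without replicate 2 of both genotypes.

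The Aff3 gene lies on chromosome 1, at 38175393 to 38630178 (GRCm38.p6), and is read from the minus strand. Its promoter is shown with those of Mllt3 and Pml because the members differ widely in CG content. CG is the dinucleotide whose methylated cytosine TET2 oxidises, and methylation was not measured on these arrays. The relation of CG content to the genotype differences was not tested. The windows run from 250 bases before to 50 bases after a transcript start in RefSeq (GRCm38.p6), in lower case with every CG in capitals. They are Aff3 at chr1:38627195-38627494, Mllt3 at chr4:88033358-88033657 and Pml at chr9:58249737-58250036, all on the minus strand.
Aff3: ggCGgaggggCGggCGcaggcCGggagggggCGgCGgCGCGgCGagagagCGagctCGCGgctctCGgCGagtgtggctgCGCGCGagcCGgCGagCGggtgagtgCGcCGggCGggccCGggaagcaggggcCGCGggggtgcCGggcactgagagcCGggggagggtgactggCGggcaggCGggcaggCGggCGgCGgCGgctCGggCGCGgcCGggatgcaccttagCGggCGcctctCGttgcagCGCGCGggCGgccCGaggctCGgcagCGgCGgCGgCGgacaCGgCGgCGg
Mllt3: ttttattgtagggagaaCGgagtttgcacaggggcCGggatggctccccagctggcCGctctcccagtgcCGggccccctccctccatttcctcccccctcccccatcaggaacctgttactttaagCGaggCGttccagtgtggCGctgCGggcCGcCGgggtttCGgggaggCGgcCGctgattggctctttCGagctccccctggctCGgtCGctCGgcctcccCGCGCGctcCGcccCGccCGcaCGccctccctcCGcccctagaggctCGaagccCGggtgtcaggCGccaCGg
Pml: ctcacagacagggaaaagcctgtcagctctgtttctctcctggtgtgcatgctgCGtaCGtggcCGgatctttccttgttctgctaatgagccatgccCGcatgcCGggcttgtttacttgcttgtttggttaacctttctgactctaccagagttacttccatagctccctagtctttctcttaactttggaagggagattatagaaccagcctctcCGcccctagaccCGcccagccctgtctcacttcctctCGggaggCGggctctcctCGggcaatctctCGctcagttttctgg

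The Aff3 window holds 54 CG in 300 bases and 83.3% G or C, and 99.7% of the 32851 mouse promoter windows hold fewer CG. The first Mllt3 window holds 29 and the Pml window 11, where the median of all promoters is 7 and the upper quartile 20. A second Mllt3 window, not shown, holds 4. Of the 10 members, 9 had an entry in the promoter table, with 15 windows in all. Zbtb16 had none, so its promoter was not examined. The other AF4 genes also had CG-rich windows, with 44 for Aff4 and 40 for the richer of the Aff1 windows. The RUNX core TGTGGT, read on both strands, occurred in 1 of the 15 windows (the third of Rara) and in 16.8% of all promoters. The GATA motif AGATAA occurred in none of the 15 and in 11.2% of all promoters.

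Aff1 and Aff4, the scaffolds best known from the super elongation complex, passed in neither genotype comparison. They lie on chromosome 5, at 103692362 to 103855322, and on chromosome 11, at 53350640 to 53421830 (GRCm38.p6). Aff1 was 10.46, 10.58 and 10.50 in Tet2-/- cells at passage 10, against 10.61, 10.56 and 10.43 in Tet2fl/fl cells, and 10.42, 10.43 and 10.34 in Tet2-/- cells at passage 2, against 10.49, 10.43 and 10.51 in Tet2fl/fl cells. Its differences were -0.02 ± 0.07 at passage 10 and -0.08 ± 0.07 at passage 2 (SE; limma adjusted p 0.961 and 0.768). Aff4 ranged from 11.93 to 12.22 over the 12 arrays. Its differences were 0.05 ± 0.09 at passage 10 and -0.05 ± 0.09 at passage 2 (adjusted p 0.927 and 0.906). The 95% interval of the genotype difference averaged over passages ran from -0.17 to 0.06 for Aff1 and from -0.15 to 0.14 for Aff4, while for Aff3 that average was 1.15 ± 0.15.

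Mllt3, whose protein reads acylated lysines on histones and docks onto the AF4 scaffolds, was higher in Tet2-/- cells in 6 of 6 pairs of arrays with the same replicate number. The share of all genes with the same sign in 6 of 6 pairs was not counted, so nothing is read from this. The gene spans 87769925 to 88033407 on chromosome 4 (GRCm38.p6). At passage 10 it was 8.61, 7.86 and 8.52 in Tet2-/- cells, against 8.02, 7.56 and 8.29 in Tet2fl/fl cells. At passage 2 it was 8.32, 8.11 and 8.22 in Tet2-/- cells, against 8.01, 7.54 and 8.08 in Tet2fl/fl cells. Replicate 2 was the lowest array of each of the 4 groups. The groups overlapped at passage 10 and did not at passage 2. The difference was 0.38 ± 0.23 at passage 10 (1.30-fold, adjusted p 0.621) and 0.34 ± 0.23 at passage 2 (1.26-fold, adjusted p 0.66). Averaged over passages it was 0.36 ± 0.16 with a limma adjusted p of 0.298, and 0.0419 when the replicate number was a block in the fit, so the call for Mllt3 rests on the pairing.

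Kmt2a, the methyltransferase that places H3K4 methylation at HOX and other promoters, lies on chromosome 9, at 44803355 to 44881352 (GRCm38.p6), and passed in neither genotype comparison. Its log2 signal was 9.71, 9.63 and 9.67 in Tet2-/- cells at passage 10, against 9.73, 9.57 and 9.58 in Tet2fl/fl cells, and 9.79, 9.76 and 9.66 in Tet2-/- cells at passage 2, against 9.70, 9.62 and 9.72 in Tet2fl/fl cells. All 4 groups overlapped. The differences were 0.04 ± 0.07 at passage 10 and 0.06 ± 0.07 at passage 2 (SE; adjusted p 0.917 and 0.849), with a 95% interval of -0.07 to 0.16 for their average.

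Of the acute promyelocytic leukaemia genes, Zbtb16 was higher in Tet2-/- cells at both passages. At passage 10 it was 9.68, 9.80 and 9.77 in Tet2-/- cells, against 9.18, 8.63 and 8.98 in Tet2fl/fl cells. At passage 2 it was 9.45, 9.27 and 9.40 in Tet2-/- cells, against 9.01, 8.87 and 9.0 in Tet2fl/fl cells. The genotypes did not overlap at either passage. Group means were 9.75 ± 0.065 in Tet2-/- cells at passage 10, 9.37 ± 0.094 in Tet2-/- cells at passage 2, 8.96 ± 0.079 in Tet2fl/fl cells at passage 2 and 8.93 ± 0.27 in Tet2fl/fl cells at passage 10 (SD, n = 3 each), and only the last 2 of these neighbours overlapped. The difference was 0.82 ± 0.12 (SE) at passage 10 (1.76-fold) and 0.41 ± 0.12 at passage 2 (1.33-fold). It was positive in 6 of 6 pairs of arrays with the same replicate number, as was that of Aff3. Both genes were picked for this difference, so these pairs carry no test. Zbtb16 lies on chromosome 9, at 48651797 to 48836225 (GRCm38.p6).

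Rara, the nuclear receptor that ZBTB16 and PML are fused to, lies on chromosome 11, at 98927800 to 98974942 (GRCm38.p6). It was 8.46, 8.44 and 8.23 in Tet2-/- cells at passage 10, against 8.29, 8.22 and 7.77 in Tet2fl/fl cells. At passage 2 it was 8.20, 8.50 and 7.98 in Tet2-/- cells, against 8.22, 8.27 and 7.78 in Tet2fl/fl cells. Replicate 3 was the lowest array in every group, and the genotypes overlapped at both passages. The differences of 0.29 ± 0.18 at passage 10 and 0.14 ± 0.18 at passage 2 did not pass (SE; adjusted p 0.639 and 0.841, or 0.183 and 0.568 with the replicate block).

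Pml, the scaffold of PML nuclear bodies, lies on chromosome 9, at 58217179 to 58249796 (GRCm38.p6). It was 9.61, 9.80 and 9.62 in Tet2-/- cells at passage 10, against 9.77, 9.55 and 9.39 in Tet2fl/fl cells, and 9.58, 9.61 and 9.69 in Tet2-/- cells at passage 2, against 9.48, 9.64 and 9.48 in Tet2fl/fl cells. The genotypes overlapped at both passages, with differences of 0.11 ± 0.10 and 0.10 ± 0.10 at passages 10 and 2 (SE; adjusted p 0.803 and 0.801).

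Etv6, an ETS family repressor that blood stem cells need in adult marrow, lies on chromosome 6, at 134035700 to 134270158 (GRCm38.p6). It did not overlap between genotypes at passage 2, with 11.40, 11.35 and 11.43 in Tet2-/- cells, against 11.31, 11.31 and 11.28 in Tet2fl/fl cells. The difference there was 0.09 ± 0.09 (adjusted p 0.776). At passage 10 it was 11.26, 11.35 and 11.30 in Tet2-/- cells, against 11.46, 11.22 and 11.10 in Tet2fl/fl cells, and the Tet2-/- arrays lay inside the Tet2fl/fl range. Nup98, a mobile FG-repeat nucleoporin encoded on chromosome 7 at 102119400 to 102210166, was the member with the lowest difference at passage 10, with 10.45, 10.31 and 10.36 in Tet2-/- cells, against 10.45, 10.59 and 10.47 in Tet2fl/fl cells. The groups meet at 10.45 without overlapping, and the difference of -0.13 ± 0.08 did not pass (SE; adjusted p 0.598). At passage 2 Nup98 was 10.50, 10.49 and 10.64 in Tet2-/- cells, against 10.54, 10.60 and 10.56 in Tet2fl/fl cells (adjusted p 0.947).

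**Figure D2:**
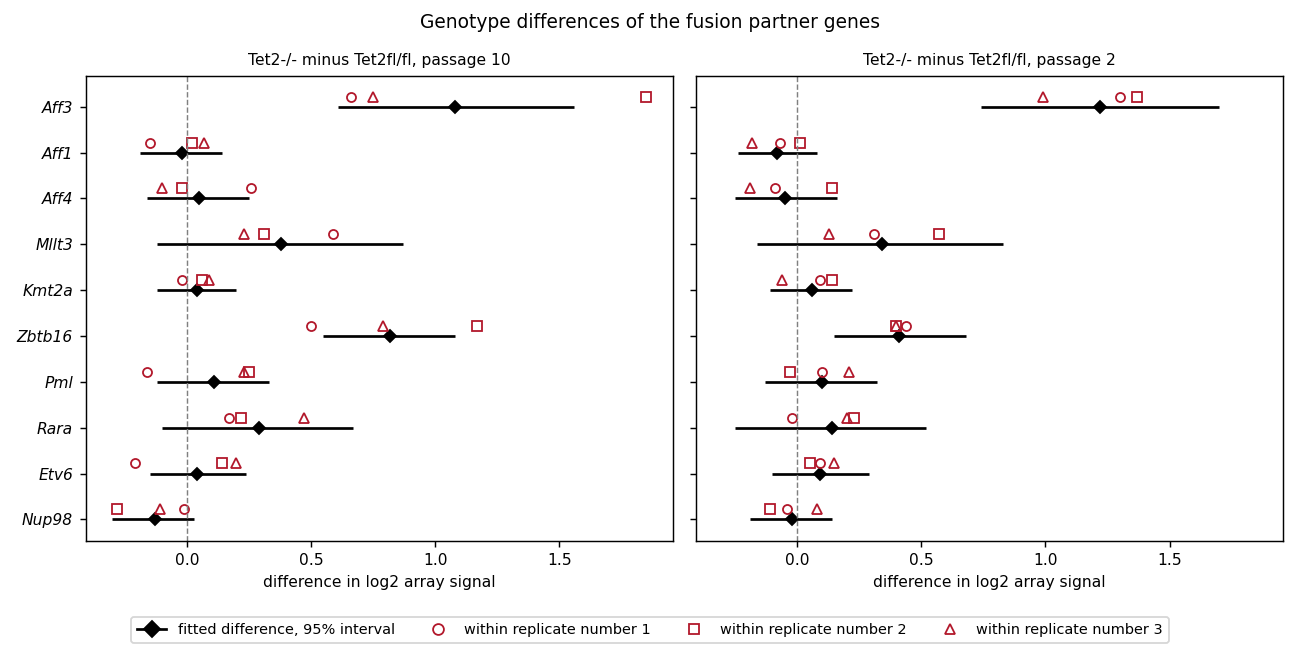
Difference in log2 signal, Tet2-/- minus Tet2fl/fl, for each gene at passage 10 and at passage 2. Diamonds with bars are fitted differences with 95% intervals, and open symbols are the differences within each replicate number. Aff3, Zbtb16 and Mllt3 have all 6 open symbols above 0, and the share of all genes that do was not counted.

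Counted over the 10 genes, 1 (Zbtb16) was past an adjusted p of 0.05 at passage 10, where 0.225% of all genes tested were, and 2 (Aff3 with it) with the replicate block, where 1.31% were. At passage 2 the count was 0 by limma (0.00593% of all genes), 1 with the block (Aff3; 0.409%), and 2 at an unadjusted p under 0.05 (9.95%). Averaged over passages it was 2, and 3 with the block (1.72% and 5.41% of all genes). The genotypes did not overlap for 3 members at passage 10 and for 4 at passage 2, against 16.4% and 15.3% of all genes. These counts include the 2 genes picked for this difference, so nothing is read from them about the set. The median difference of the 10 genes was 0.08 at passage 10 and 0.10 at passage 2, against -0.01 and 0.00 over all genes. The middle 90% of all genes lay between -0.32 and 0.29 at passage 10 and between -0.30 and 0.29 at passage 2. Aff3, Zbtb16 and Mllt3 lay above those ranges at both passages. Since Aff3 and Zbtb16 were picked for this difference, their place and the median of the 10 genes are a description and carry no test.

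Mean levels of some marker lists of other cells also differed by genotype, at both passages or at passage 2 alone. The mean of the 9 mast cell and basophil markers lay between 10.9 and 11.4 in Tet2-/- cells and between 11.6 and 11.9 in Tet2fl/fl cells at passage 10, and between 11.1 and 11.3 in Tet2-/- cells and between 11.6 and 11.7 in Tet2fl/fl cells at passage 2. The mast cell tryptase Tpsab1 was the 1 of 9 that passed in the genotype average (-1.43 ± 0.22, adjusted p 0.0124), where 1.72% of all genes did. With the replicate block 4 passed (Cma1, Fcer1a and Gata2 with it), where 5.41% of all genes did. The 5 eosinophil markers measured averaged 7.96 to 8.28 in Tet2-/- cells and 9.57 to 9.94 in Tet2fl/fl cells at passage 2, and overlapped at passage 10 (7.58 to 9.18 in Tet2-/- cells and 7.76 to 9.82 in Tet2fl/fl cells). None of them passed in the genotype average by limma, and Epx (-2.22 ± 0.50, adjusted p 0.0501) and Il5ra (-0.97 ± 0.26, adjusted p 0.0822) did with the block (adjusted p 0.0169 and 0.0412). In that average 1 of the 5 was positive (0.23), and at passage 2 it was Siglecf (0.07). Stem cell markers, 6 measured, averaged 5.86 to 6.02 in Tet2-/- cells and 6.05 to 6.12 in Tet2fl/fl cells at passage 2, without overlap, and 5.95 to 6.09 in Tet2-/- cells and 6.04 to 6.30 in Tet2fl/fl cells at passage 10.

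Monocyte and macrophage markers, 6 measured, had a median genotype difference of 0.10 at passage 10 and 0.34 at passage 2, with 3 and 5 of the 6 positive. They averaged 8.16 to 8.38 in Tet2-/- cells and 7.87 to 8.12 in Tet2fl/fl cells at passage 2, without overlap, and 8.23 to 8.45 in Tet2-/- cells and 8.13 to 8.58 in Tet2fl/fl cells at passage 10. None passed in the genotype average by limma, where 4 of the 6 were positive and the lowest was -0.38. Cx3cr1 was lower at passage 2 (-0.48). The macrophage receptor gene Adgre1 passed with the block alone (0.26 ± 0.09, adjusted p 0.208, or 0.0419 with the block). The megakaryocyte integrin gene Itga2b did too (0.35 ± 0.13, adjusted p 0.213, or 0.0416 with the block). In its list, erythroid and megakaryocyte markers, 2 of 6 measured were positive in the average. Of the 10 immature myeloid markers, 5 were positive in the genotype average and the median was 0.01. The SCF receptor gene Kit was the 1 of them that passed (-0.82 ± 0.15, adjusted p 0.022). The part of these markers in the Aff3 and Zbtb16 differences was not tested.

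Aff3 is known from lymphoid cells and Zbtb16 from natural killer T and innate lymphoid cells, so their markers were read as well. The 5 B cell markers measured averaged 5.28 to 5.55 in Tet2-/- cells and 5.27 to 5.43 in Tet2fl/fl cells at passage 10, and 5.21 to 5.46 in Tet2-/- cells and 5.20 to 5.32 in Tet2fl/fl cells at passage 2. Vpreb1 and Ms4a1 were below the filter. The 9 markers of T, natural killer and innate lymphoid cells measured averaged 7.06 to 7.23 in Tet2-/- cells and 7.05 to 7.36 in Tet2fl/fl cells at passage 10, and 7.09 to 7.30 in Tet2-/- cells and 7.23 to 7.48 in Tet2fl/fl cells at passage 2. Both lists overlapped between genotypes at both passages. Id2, the 1 of these genes to pass in the genotype average with the block alone, was lower (-0.31 ± 0.07, adjusted p 0.0536, or 0.029 with the block).

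The second comparison was between passages of the same genotype. Averaged over genotypes, the difference of passage 10 minus passage 2 was 0.18 ± 0.15 for Aff3 (adjusted p 0.473) and 0.18 ± 0.09 for Zbtb16 (adjusted p 0.213). This average uses no difference between genotypes, so it can be tested for these genes too. The member with the lowest value was Nup98, at -0.12 ± 0.05 (adjusted p 0.187). The other 7 lay between -0.06 and 0.10. None of the 10 passed in this contrast by limma, where 7.77% of all genes tested did, none with the replicate block, where 13.2% did, and none at an unadjusted p under 0.05, where 26.8% did.

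Zbtb16 was higher at passage 10 than at passage 2 in Tet2-/- cells, with no overlap and a difference of 0.38 ± 0.12, while the difference in Tet2fl/fl cells was -0.03 ± 0.12 (SE). Its genotype difference at passage 10 exceeded that at passage 2 by 0.41 ± 0.17. Since Zbtb16 was picked on differences that enter these contrasts, they carry no test. The genotype difference of Aff3 was 0.13 smaller at passage 10, with an SE of 0.31. In Tet2-/- cells Aff1 was higher and Nup98 lower at passage 10 without overlap, by 0.11 ± 0.07 and -0.17 ± 0.08 (SE; adjusted p 0.397 and 0.219). With Zbtb16 that makes 3 of 10 members without overlap, where 28.3% of all genes had none, and since Zbtb16 is among them nothing is read from this count. In Tet2fl/fl cells 0 of 10 members were without overlap, where 14.5% of all genes were.

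No member passed for passage in Tet2-/- cells, where 2.98% of all genes did, or in Tet2fl/fl cells, where 0% did, and none did with the replicate block (7.94% and 0.0415% of all genes). Of the 8 members not picked for a genotype difference, 1 (Nup98) had an unadjusted p under 0.05 in Tet2-/- cells and 0 did in Tet2fl/fl cells, where 21.6% and 10.2% of all genes did. For the change in genotype difference between passages, 0 of these 8 were past the adjusted threshold or an unadjusted p of 0.05, where 0% and 3.22% of all genes were.

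**Figure D3:**
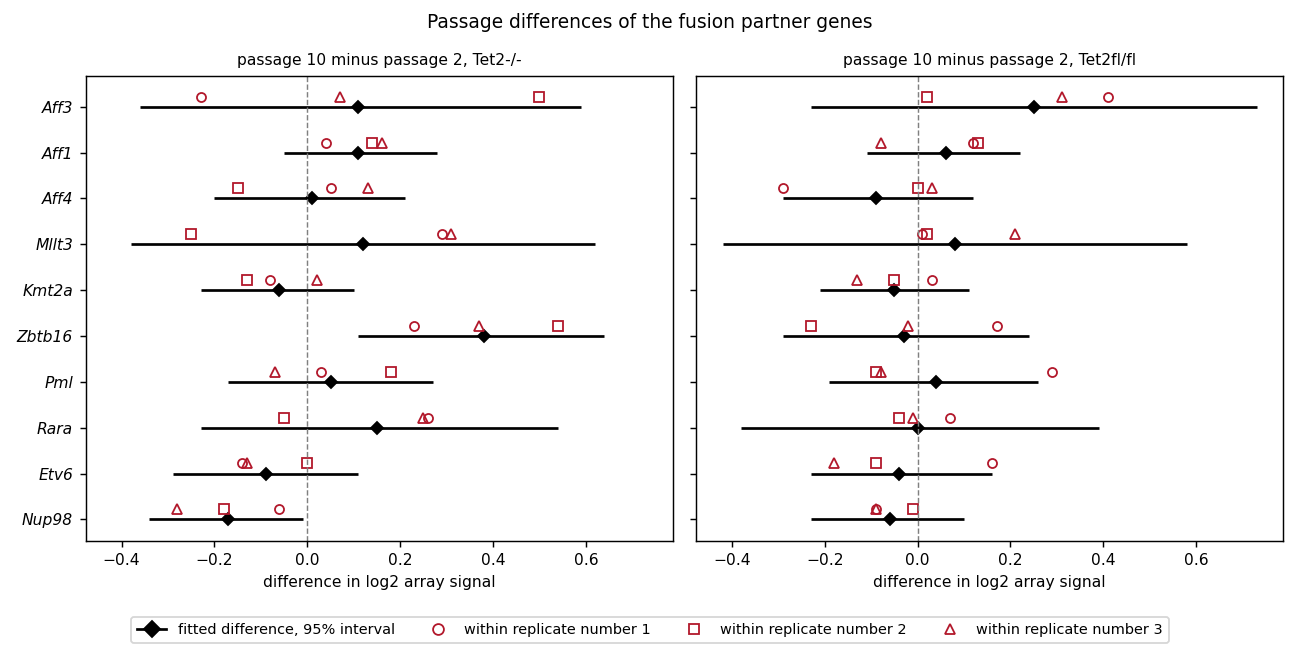
Difference in log2 signal, passage 10 minus passage 2, for each gene in Tet2-/- cells and in Tet2fl/fl cells. Diamonds with bars are fitted differences with 95% intervals and open symbols the differences within each replicate number; Zbtb16 in Tet2-/- cells has the largest fitted difference, 0.38.

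The genes around these members were read from 11 lists of fusion partners, complexes and relatives, given with the members left out. Between genotypes, none of the measured genes of any list passed at passage 10, at passage 2 or in the average, where 0.225%, 0.00593% and 1.72% of all genes did. Of the MLL fusion partners and the super elongation complex, 18 of 20 were measured, and the smallest p was that of the elongation factor Ell at passage 10. Ell was 9.30, 9.34 and 9.29 in Tet2-/- cells, against 9.08, 9.02 and 9.10 in Tet2fl/fl cells (difference 0.24 ± 0.09, adjusted p 0.342). The median genotype difference of this list was -0.02 at passage 10 and 0.01 at passage 2, against -0.01 and 0.00 over all genes. In the MLL complex, with 10 of 10 measured, the chromatin tether Psip1 had the smallest p (average difference 0.15 ± 0.06, adjusted p 0.278).

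Of the HOX and MEIS class targets of MLL fusions, 11 of 16 were measured (Hoxa9 and Hoxa10 were below the filter), and the homeodomain cofactor Pbx3 had the smallest p, at passage 10 (difference -0.65 ± 0.21, adjusted p 0.272). Pbx3 was 7.30, 6.91 and 7.41 in Tet2-/- cells at passage 10, against 8.29, 7.80 and 7.49 in Tet2fl/fl cells, without overlap. In the average it was the 1 of 11 to pass with the replicate block (average difference -0.46 ± 0.15, adjusted p 0.142, or 0.0381 with the block). Among the PML body components, with 10 of 13 measured, the helicase Blm had the smallest p (average difference 0.19 ± 0.07, adjusted p 0.189). Among the retinoic acid receptors, corepressors and targets, with 17 of 22 measured, it was Rxra, the dimer partner of Rara. Rxra was 9.18, 8.72 and 8.98 in Tet2-/- cells at passage 10, against 9.15, 9.02 and 9.33 in Tet2fl/fl cells, and 8.65, 8.64 and 8.66 in Tet2-/- cells at passage 2, against 9.12, 8.93 and 9.11 in Tet2fl/fl cells. Its average difference passed with the block alone (average difference -0.31 ± 0.08, adjusted p 0.0901, or 0.0315 with the block). The median genotype difference of this list was 0.03 at passage 10 and -0.04 at passage 2.

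The nucleolar chaperone Npm1 had the smallest p of the 5 measured RARA fusion partners (average difference 0.23 ± 0.06, adjusted p 0.0709). The tyrosine kinase Jak2 had the smallest of the 19 measured ETV6 and NUP98 partners, and its average passed with the block alone (average difference 0.28 ± 0.09, adjusted p 0.131, or 0.0377 with the block). The zinc finger gene Glis2 led the 24 other leukaemia fusion genes at passage 10 (difference 0.30 ± 0.09, adjusted p 0.232), Zbtb25 the 19 BTB zinc finger relatives of Zbtb16 (average difference 0.25 ± 0.07, adjusted p 0.0826), Etv5 the 14 ETS relatives of Etv6 (average difference -0.38 ± 0.09, adjusted p 0.0603, or 0.0203 with the block) and Nup153 the 17 other nucleoporins (average difference 0.16 ± 0.05, adjusted p 0.132). Of these, Etv5 passed with the block, as did the BTB zinc finger gene Hic2 (average difference 0.30 ± 0.08, adjusted p 0.0876, or 0.0324 with the block). No other BTB zinc finger gene passed in the average with or without the block, and the list's median was -0.04.

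**Figure D4:**
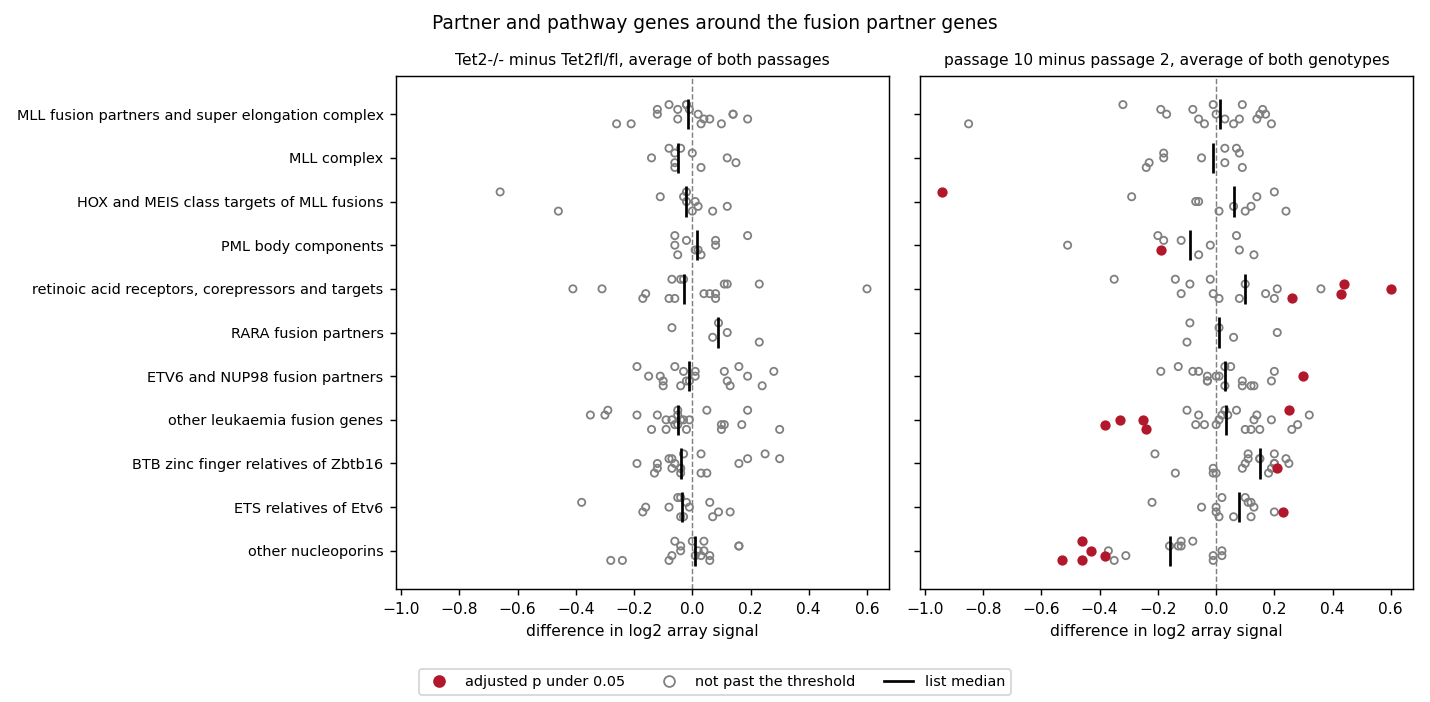
Fitted difference in log2 signal for each measured gene of the 11 lists, averaged over passages for genotype (Tet2-/- minus Tet2fl/fl) and over genotypes for passage (10 minus 2). Each point is a gene, red points passed an adjusted p of 0.05 and short bars are list medians; red points appear for passage and not for genotype.

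With passage, members of several lists passed. Here and below, rose and fell are said of genes past the threshold, and genes short of it can lie on the same side. Over all genes tested 3.25% rose and 4.52% fell (548 and 762 genes), a balance that turned round with the arrays set to equal medians (674 and 464) and with quantile normalization (1143 and 651). Levels of some marker lists also differed by passage. Erythroid and megakaryocyte markers, 6 measured, averaged 8.02 to 8.73 at passage 10 and 7.72 to 7.94 at passage 2 in Tet2-/- cells, and 8.13 to 8.49 at passage 10 and 7.81 to 8.02 at passage 2 in Tet2fl/fl cells, without overlap in either. All 6 lay above 0 in the passage average, and the platelet chemokine gene Ppbp was the 1 that passed (1.75 ± 0.30, adjusted p 0.014). Itga2b passed with the block too, where 5.90% of all genes rose. Ppbp weighs heavily in the means: its differences were 1.73 in Tet2-/- cells and 1.77 in Tet2fl/fl cells. The list's medians were 0.36 and 0.15, and 4 of 6 were positive in Tet2fl/fl cells. The 10 maturing neutrophil markers had a median passage difference of -0.62. Their mean lay between 6.88 and 7.39 at passage 10 and between 7.63 and 8.34 at passage 2 in Tet2-/- cells, and between 6.34 and 7.95 at passage 10 and between 7.43 and 8.81 at passage 2 in Tet2fl/fl cells. The granule gene Ngp was the 1 of 10 that passed (-1.81 ± 0.41, adjusted p 0.0275), and 2 of the 10 lay above 0. With the block 4 of the 10 fell, where 7.28% of all genes did. The 10 immature myeloid markers had a median passage difference of -0.18, against 0.04 over all genes, and 4 of them lay above 0. None of these passed by limma, and Elane fell with the block. Of the 5 B cell markers, Pax5 rose (0.34 ± 0.09, adjusted p 0.0475). The mean of these markers was low, at 5.20 to 5.55 over the arrays, below the lowest array median of 5.57. The part of these markers in the passage differences of the lists was not tested.

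Of the 17 nucleoporins measured, 5 fell past the threshold at passage 10 and 0 rose, where 4.52% and 3.25% of all genes did. Counted by sign alone, 2 of the 17 lay above 0. The list's median was -0.16, against 0.04 over all genes. Nup160 of the Y-complex was 8.88, 8.83 and 9.0 at passage 10 and 9.46, 9.45 and 9.64 at passage 2 in Tet2-/- cells, and 9.02, 8.81 and 8.93 at passage 10 and 9.40, 9.26 and 9.47 at passage 2 in Tet2fl/fl cells. It fell by 0.53 on the log2 scale without overlap in either genotype (SE 0.06, adjusted p 0.00891). The inner ring nucleoporin Nup155 fell by 0.46 (SE 0.07, adjusted p 0.0126), and Nup205, Nup107 and Nup37 were the others that passed. With the replicate block 7 fell, where 7.28% of all genes did. Nup43 (-0.31 ± 0.12) and Nup133 (-0.37 ± 0.13) passed there alone (adjusted p 0.124 and 0.0989, or 0.041 and 0.048 with the block). With 1 array left out 3 to 6 nucleoporins fell, and Nup160 and Nup155 passed in 12 of 12 such fits. The count was 3 without replicate 1 or 3 of Tet2-/- at passage 2, replicate 2 of Tet2-/- at passage 10 or replicate 3 of Tet2fl/fl at passage 2. Without any 1 replicate number it was 0, and 0 to 6 of all genes passed in those fits.

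Of the 17 retinoic acid genes measured, 4 rose with passage and 0 fell, where 3.25% and 4.52% of all genes did. By sign, 11 of the 17 lay above 0. The 4 were the retinal reductase Dhrs3 (0.60 ± 0.15, adjusted p 0.0332), the transglutaminase Tgm2 (0.44 ± 0.10, adjusted p 0.0282), the receptor Rarg (0.43 ± 0.10, adjusted p 0.0266) and the binding protein Crabp1 (0.26 ± 0.07, adjusted p 0.0418). Rarg was 7.42, 7.73 and 7.62 at passage 10 and 7.20, 7.25 and 6.91 at passage 2 in Tet2-/- cells, and 7.32, 7.56 and 7.50 at passage 10 and 7.16, 7.26 and 6.82 at passage 2 in Tet2fl/fl cells. The passages did not overlap in either genotype. Rara itself did not pass in this contrast (0.08 ± 0.12, adjusted p 0.714). With 1 array left out the count was 0 to 3, and it was 0 without replicate 1 or 3 of Tet2-/- at passage 2, replicate 2 of Tet2-/- at passage 10 or replicate 3 of Tet2fl/fl at passage 10. Without any 1 replicate number it was 0 as well.

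Among the 24 other leukaemia fusion genes, 4 fell with passage and 1 rose, where 4.52% and 3.25% of all genes did. By sign, 16 of the 24 lay above 0. The chromatin protein Dek fell (-0.38 ± 0.07, adjusted p 0.0175), as did the histone chaperone Set (-0.33 ± 0.08, adjusted p 0.0289), the RNA-binding Rbm15 (-0.25 ± 0.06, adjusted p 0.0376) and the nucleoporin Nup214 (-0.24 ± 0.06, adjusted p 0.0388), and Glis2 rose (0.25 ± 0.06, adjusted p 0.0346). In human leukaemia DEK and SET are each fused to NUP214. With the arrays set to equal medians, or with no filter, 2 of the 24 fell. With 1 array left out 1 to 4 fell: 4 without replicate 2 of Tet2-/- at passage 2, and 2 without replicate 1 or 2 of Tet2fl/fl at passage 2, replicate 1 of Tet2fl/fl at passage 10 or replicate 3 of Tet2-/- at passage 10. Without any of the other 7 arrays it was 1, and without any 1 replicate number 0. Dek passed in 12 of 12 fits with 1 array left out and Set in 4 of 12. Of the 11 HOX and MEIS targets, Meis1, the homeodomain partner of HOXA9, was the 1 that passed, and it was lower (-0.94 ± 0.24, adjusted p 0.0396). By sign, 7 of the 11 lay above 0. Meis1 was 6.23, 5.98 and 5.50 at passage 10 and 6.66, 7.09 and 6.98 at passage 2 in Tet2-/- cells, and 7.45, 5.82 and 6.64 at passage 10 and 7.18, 7.79 and 7.53 at passage 2 in Tet2fl/fl cells. The passages overlapped in Tet2fl/fl cells, and Meis1 passed in 3 of 12 fits with 1 array left out. Rnf4 fell among the PML body components, and Phf23, Zbtb33 and Elf4 rose among the ETV6 and NUP98 partners, the BTB zinc finger genes and the ETS genes, with 1 gene past the threshold in each list. With the replicate block 3 PML body components fell, 2 BTB zinc finger and 2 ETS genes rose, and Ddx10 fell among the ETV6 and NUP98 partners (-0.19 ± 0.06, adjusted p 0.0652, or 0.0499 with the block). Over all genes 7.28% fell and 5.90% rose with the block. In the MLL complex, the RARA fusion partners and the MLL fusion partners with the super elongation complex, 0 passed by limma, and 4, 1 and 9 of the 10, 5 and 18 measured had an unadjusted p under 0.05, where 26.8% of all genes did. With the replicate block 2, 1 and 3 of them passed, where 13.2% of all genes did.

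Over the 12 arrays the gene most like Aff3 was Arhgap26, with a Pearson correlation of 0.942. Cercam (0.925), Dyrk3 (0.923), Inf2 (0.921) and Iqgap2 (0.919) followed, and Lrrc8b (-0.964), Chmp2a (-0.938) and Gnptab (-0.930) ran the other way. The genes most like Zbtb16 were Tmem150b (0.977), Rgl1 (0.942), Ripor2 (0.939), Slc26a9 (0.933) and the growth factor receptor gene Igf1r (0.931). The least like it were Dicer1 (-0.957), Gfpt1 (-0.939) and Atp5pb (-0.935). Aff3 and Zbtb16 correlated at 0.825 with each other. These values are a description over 12 arrays that share the same 4 groups, and any gene that differs between the genotypes in the same way scores high. Of the genes like Zbtb16, Slc26a9 had the widest genotype differences, 1.27 at passage 10 and 0.62 at passage 2, and of those like Aff3 it was Cercam, with 0.82 and 0.86. Dicer1, which encodes the microRNA-processing nuclease, had differences of -0.37 at passage 10 and -0.25 at passage 2.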

How the data were processed

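RNA from 12 samples was hybridised to Affymetrix Mouse Gene ST 2.0 arrays. The deposited values are log2 signals from RMA in Affymetrix Power Tools, per the submitters' processing notes, with versions not given in the sources used here. Array signals have no read depth, and 3 arrays per group limit the precision. Of 41345 rows, 23521 carried 1 symbol. Rows with a mean under the 30th percentile (log2 4.701) were left out, 1 row per gene was kept (the highest mean), and 16860 genes were tested with limma 3.58.1 in R 4.3.3: 4 group means, two-sided, Benjamini-Hochberg over all genes within a contrast, threshold 0.05. The fit was tested on simulated data. It recovered 74 of 100 changes of 1 log2 unit for the interaction and 88 to 96 of 100 in the other contrasts. Values were drawn independently for each array, so the simulation does not cover the pairing of samples described next.

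Replicate numbers come from the sample titles and pair the samples: deviations from group means correlated at 0.201 to 0.517 in 18 same-numbered pairs and at -0.369 to 0.0532 in 36 others. The fit with the number as a block is therefore given beside the reported results whose call it changed.

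The members and gene lists were chosen with earlier results of these data known. All members were named. Each list gave the gene with the smallest p between genotypes. Likeness gave the 5 highest and 3 lowest correlations, with predicted and unnamed genes left out. List genes that passed with passage or with the block alone were named after their values were seen. Alternatives covered the block, scaling, filter, row choice, variance model, array weights and arrays left out. Promoter sequences are RefSeq's (GRCm38.p6). Protein sequences and the Zbtb16 promoter, planned at first, were not used here. The Mllt3 and Pml promoters were not in that plan.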

Additional observations from a re-analysis of the deposited data

How the results depend on the processing

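The number of the 10 genes past the threshold moved with the fit. For genotype these calls were of Aff3 and Zbtb16, the 2 genes picked for that difference, and in the average also of Mllt3. They describe how the fits differ and are no test of the 2 picked genes. At passage 10 the number was 1, against 2 with the replicate block and with replicate as a random block and 0 with only the arrays compared. It ranged from 0 to 2 with arrays left out; it was 0 without replicate 2 or 3 of Tet2-/- at passage 10 and without any 1 replicate number, and 2 without replicate 1 of that group. At passage 2 it was 0, against 1 (Aff3) with the replicate block, with array weights and with only the arrays compared, and 0 to 1 with arrays left out (1 without replicate 2 of Tet2-/- at passage 10). For the genotype average it was 2, and 0 to 2 with arrays left out: 1 without replicate number 2 and 0 without replicate number 3, each with fewer samples. The counts for passage and for the interaction stayed at 0 in every fit run. The block changed no other call of a member than those of Aff3 and Mllt3.

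Of 670 member differences under alternatives that kept all arrays of the comparison, 7 changed side of the threshold and 9 changed sign, and of 1050 with arrays left out 10 and 69 did. None of the sign changes concerned a difference with an unadjusted p under 0.05 in the reported fit. Over all genes the count past the threshold was 38 at passage 10 (3 to 221 under the other alternatives, 5 to 30 with a replicate number left out, 12 to 70 with an array left out). It was 1 at passage 2 (1 to 69, 0 to 3, 0 to 9), 290 for the genotype average (218 to 912, 14 to 152, 98 to 496), 503 for passage in Tet2-/- cells (0 to 1728, 0 to 1, 0 to 483), 0 in Tet2fl/fl cells (0 to 7, 0 to 0, 0 to 0) and 1310 for the passage average (970 to 2223, 0 to 6, 358 to 1365). Setting equal medians turned 111 higher and 179 lower genes into 88 and 289 for the genotype average, 211 and 292 into 197 and 130 for passage in Tet2-/- cells, and 548 and 762 into 674 and 464 for the passage average. Quantile normalization gave 401 and 268, and 1143 and 651, for the passage contrasts. The cause was not tested.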
